A study of Mus musculus with 2 samples.

Results

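A set of 9 annexin genes is described here in mouse pancreatic islets, of 30864 features measured, 18641 of which carry a gene symbol. They are Anxa1, Anxa2, Anxa3, Anxa4, Anxa5, Anxa6, Anxa7, Anxa10 and Anxa11, and each was taken as every array probe with that symbol in the authors' deposited table. The set and its arrangement, Anxa10 set against the other 8, were selected on the difference between the groups on these same arrays. That difference is therefore a description for every annexin, and a call from the fit over all features, where named, is no test of it. Islets of C57BL/6J mice aged 8 weeks were taken 3 days after 60% of the pancreas was removed (pancreatectomy) or after a sham operation. Both groups thus share strain, age, an operation and the time after it. The study comprised 2 samples of total RNA, each hybridised as 4 replicate one-colour arrays, so 4 pancreatectomy arrays are compared with 4 sham arrays. The labels do not state whether these 4 arrays stem from different mice or islet isolations. Errors and p-values therefore cover array-to-array spread alone, and some of it may be technical.

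All 8 arrays lay on 1 slide. Slide columns 1 and 2 held only sham arrays and columns 3 and 4 only pancreatectomy arrays. The effects of column and operation cannot be told apart, while each of the 2 slide rows held both groups. The 75th percentile of the processed signal ran from 178 to 655 and the share of probes well above background from 48.1% to 71.4%, with sham replicate 3 the lowest on both. The islet label was checked against 8 markers (Ins1, Ins2, Gcg, Sst, Ppy, Iapp, Chga and Pdx1), all of which were measured, and none passed the test between groups. Their changes (log2, pancreatectomy minus sham) ran from -0.51 for Pdx1 to 0.44 for Ppy, with a median of -0.13. Of the 8, 1 (Pdx1) had all pancreatectomy arrays below the sham arrays, which held for 5.29% of all features. Some arrays also carried transcripts of other tissues. Liver markers lay 6.34, 6.61 and 5.64 above the sham mean (log2, mean over 7 genes) on sham replicate 4 and pancreatectomy replicates 1 and 4. Gut and B-cell markers lay 3.59 and 5.30 above it on pancreatectomy replicate 3. Acinar markers, over 8 genes, were present on all arrays and ran from -2.02 on sham replicate 3 to 1.49 on pancreatectomy replicate 3. Their summed linear signal was 56364 to 531088 on sham arrays and 134381 to 547751 on pancreatectomy arrays. In such bulk samples, fewer cells of a type and less RNA per cell cannot be told apart.

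Annexins are cytosolic proteins that bind negatively charged phospholipids when calcium rises. They act at membranes, in vesicle traffic and exocytosis, in the repair of torn plasma membrane, in blood clotting and fibrinolysis, and in the handling of dying cells that expose phosphatidylserine. Anxa10 is an unusual member, in which most of the calcium-binding sequences of the family are lost, and its transcript is best known from the stomach epithelium. Anxa1 is an anti-inflammatory annexin that signals through formyl peptide receptors, and Anxa2 binds S100a10 and serves as a cell-surface site for plasminogen activation.

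Promoter sequences are shown for the 3 annexins whose signal differed most between the groups, Anxa10, Anxa1 and Anxa2. Each is the 250 bases before the transcription start site, 5′ to 3′ on the gene's strand, from RefSeq on the GRCm38.p6 build. Capitals mark the AP-1 letters TGANTCA, searched on both strands. Of the 9 annexins, 7 had an entry in the promoter table, and Anxa3 and Anxa6 had none.
Anxa10 (chr8:62123194-62123443, minus strand): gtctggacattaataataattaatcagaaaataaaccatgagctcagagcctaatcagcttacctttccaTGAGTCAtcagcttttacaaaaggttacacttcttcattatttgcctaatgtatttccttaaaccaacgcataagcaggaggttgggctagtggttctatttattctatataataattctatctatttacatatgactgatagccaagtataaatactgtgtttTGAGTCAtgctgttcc
Anxa2 (chr9:69453433-69453682, plus strand): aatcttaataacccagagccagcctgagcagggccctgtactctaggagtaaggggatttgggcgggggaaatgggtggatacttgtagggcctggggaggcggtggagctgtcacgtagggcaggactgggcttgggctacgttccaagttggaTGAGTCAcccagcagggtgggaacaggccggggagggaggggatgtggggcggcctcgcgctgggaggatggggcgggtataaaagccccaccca
Anxa1 (chr19:20390672-20390921, minus strand): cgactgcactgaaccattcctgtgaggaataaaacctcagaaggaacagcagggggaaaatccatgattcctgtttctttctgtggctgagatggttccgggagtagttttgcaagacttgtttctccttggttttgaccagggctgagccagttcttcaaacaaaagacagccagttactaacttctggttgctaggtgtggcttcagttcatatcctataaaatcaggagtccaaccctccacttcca

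The Anxa10 promoter held the AP-1 letters at 2 places, at positions -180 and -16 counted from the start site. The Anxa2 promoter held them once, at position -95. They were not found in the windows of Anxa1, Anxa4, Anxa5, Anxa7 or Anxa11. Of 32851 promoters of the same length, 6.75% held these letters at least once and 0.338% at 2 or more places. The cAMP response element, TGACGTCA, lay in 1.55% of all promoters and in none of the annexin windows. The TATA box letters TATAAA were in the windows of Anxa10, Anxa1 and Anxa2, and in 12.4% of all promoters. The Anxa10 window was 33.6% G and C, against a median of 52.4% over all promoters. A match describes the letters only and shows no binding.

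Anxa10 was higher after pancreatectomy. It was read by 1 probe, at chr8:64536504-64536563 on the minus strand of the mm9 build on which the array was designed. Which exon or UTR the probe lies in was not analysed here. Levels are log2 of the processed signal after each array was shifted by its 75th percentile. On the 4 sham arrays the Anxa10 level was 3.35, 2.68, 3.07 and 2.53, and only replicate 1 lay well above background. On the 4 pancreatectomy arrays it was 6.34, 6.04, 5.81 and 4.47, all well above background. The groups did not overlap, and pancreatectomy replicate 4 was the lowest of its group.

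The mean Anxa10 level was 2.91 ± 0.37 on sham arrays and 5.66 ± 0.83 on pancreatectomy arrays (SD, n = 4 each). The change was 2.76 ± 0.39 on the log2 scale (SE), or 6.77-fold. The authors' deposited table, which holds 1 average per group, gives a difference of 2.76 for the same probe. Since the probe was not well above background on 3 of 4 sham arrays, values with other treatments of dim spots are given. With each dim sham array raised to its lowest signal well above background, the change was 2.12, or 4.35-fold. That lowest signal was 5.19 on sham replicate 3, which exceeds the Anxa10 level of pancreatectomy replicate 4. With normexp background correction and an offset of 50, the change was 0.89. Such an offset shrinks log2 differences of dim probes, and the deposited average raw signals of this probe were 8.33 (sham) and 62.2 (pancreatectomy).

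**Figure D1:**
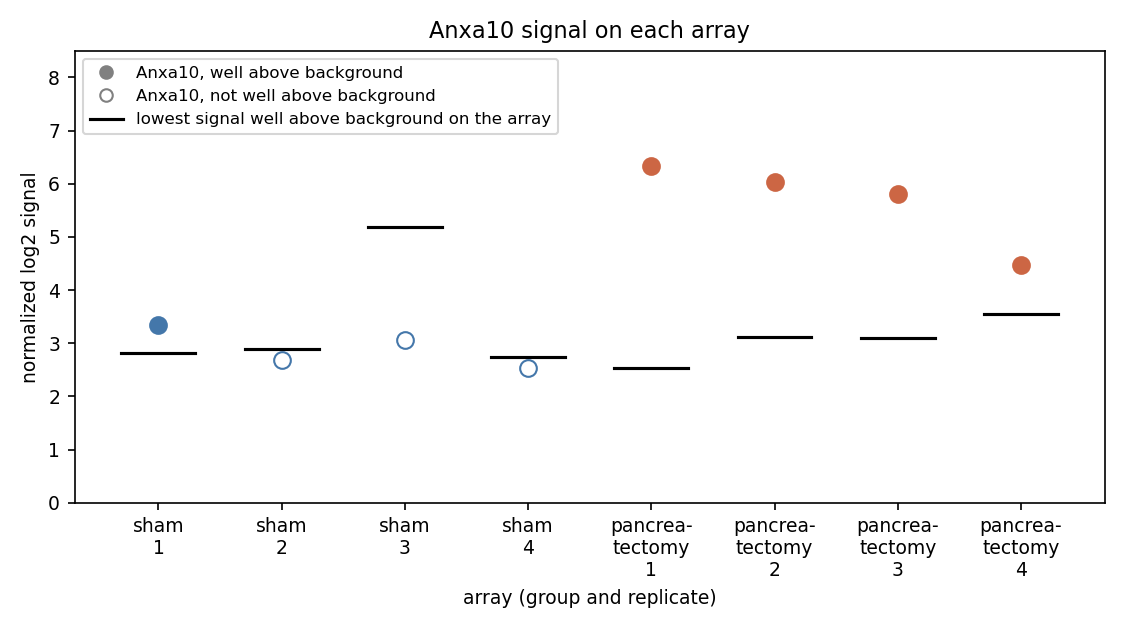
Normalized log2 signal of the Anxa10 probe (y axis) on each array (x axis: group and replicate), filled where well above background and open where not, with a bar at the array's lowest signal well above background. The pancreatectomy arrays sit between 4.47 and 6.34, above the sham arrays at 2.53 to 3.35, and the bar of sham replicate 3 lies at 5.19.

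In the fit over all features with limma, 194 features passed a Benjamini-Hochberg adjusted p of 0.05, which is 0.629% of those tested. Of these, 168 were higher after pancreatectomy (0.544%). Anxa10 was 1 of the 168. Among the 9 annexins, Anxa10 was the only member called, with 0 called lower and 8 not called. Since the contrast chose the set, nothing is read from this count. Anxa10 entered the fit with 5 arrays above background, 4 of them from the group in which it was high, against a required 4.

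Leaving out 1 array at a time gave an Anxa10 change between 2.53 and 3.16. Within slide row 1 the change was 3.18 and within row 2 it was 2.34. It was 2.89 without the 3 arrays with liver transcripts and 3.01 without the 4 arrays with liver, gut or B-cell transcripts. Its place past the threshold in the whole-table fit was lost in 13 of 24 alternatives.

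**Figure D2:**
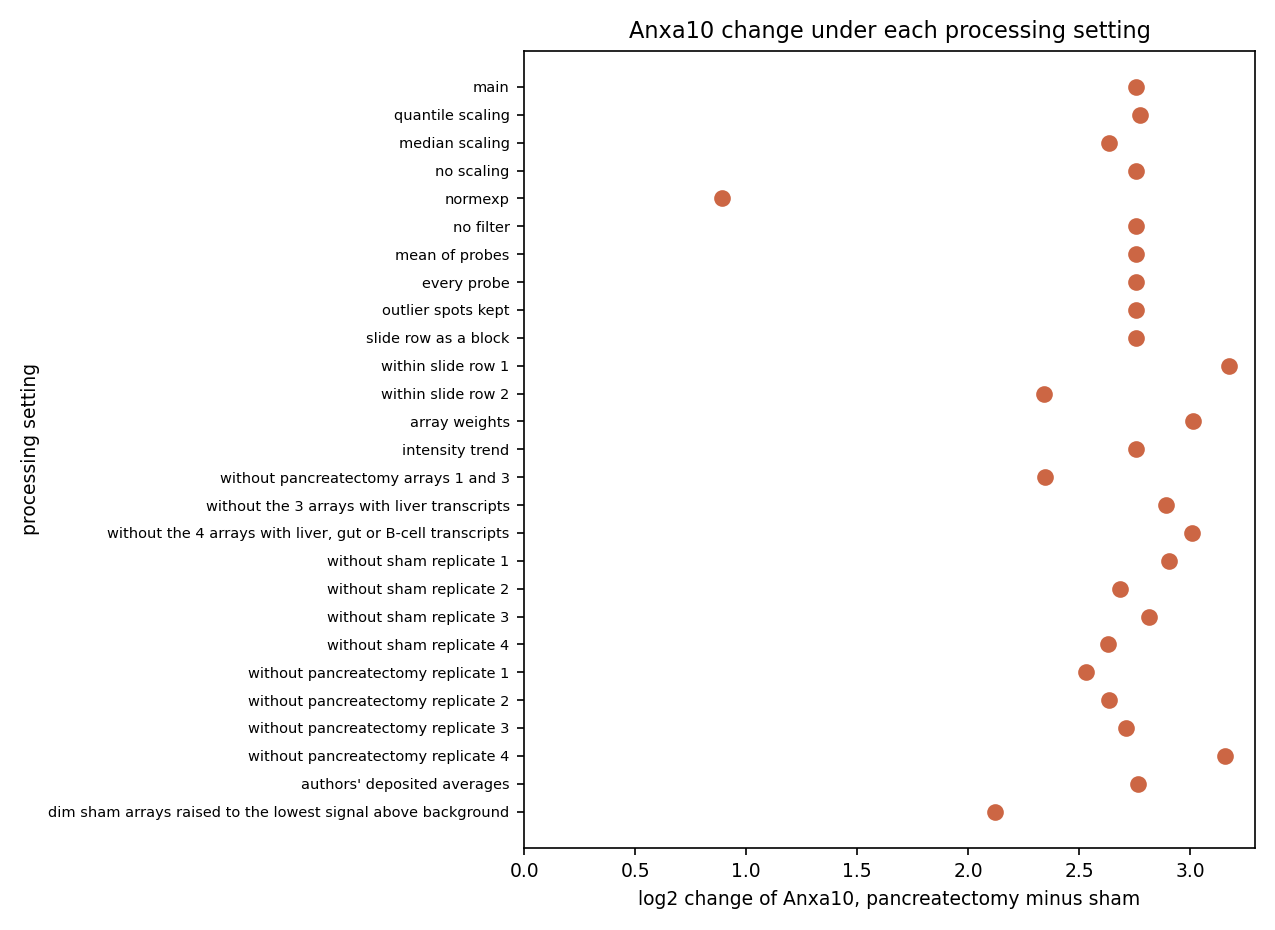
Log2 change of Anxa10, pancreatectomy minus sham (x axis), under each processing setting (y axis), with 1 point per setting. Every value is above 0, from 0.89 with normexp to 3.18 within slide row 1.

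The other 8 annexins were split in direction, with 4 higher and 4 lower after pancreatectomy, counting Anxa7 at -0.0042 ± 0.20 as lower. Their median change was 0.090 on the log2 scale, against -0.037 over all features. With median scaling, these medians were -0.034 and -0.16. Per array, the Anxa10 level minus the mean level of the other 8 is a contrast in which any scaling constant of the array cancels. This difference was 2.48 higher on pancreatectomy than on sham arrays, and the lowest pancreatectomy array lay 0.93 above the highest sham array. It is the contrast the set was arranged by. With normexp background correction and its offset of 50, which shrinks differences of dim probes, it was 0.60.

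**Figure D3:**
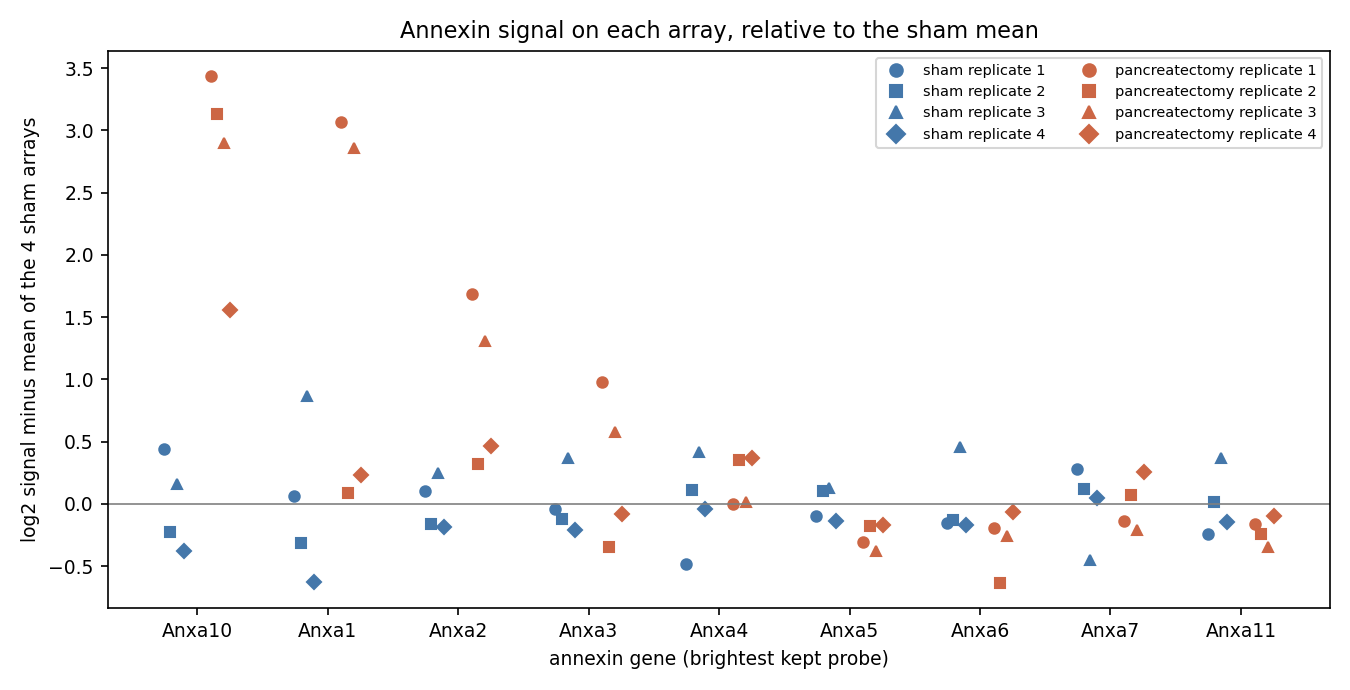
Log2 signal of each annexin on every array minus its own mean over the 4 sham arrays (y axis), by gene (x axis), with colour for the group and marker shape for the replicate. Anxa10 lies 1.56 to 3.44 above the sham mean on all 4 pancreatectomy arrays, while Anxa1, Anxa2 and Anxa3 are highest on pancreatectomy replicates 1 and 3.

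Anxa1, Anxa2 and Anxa3 differed among the pancreatectomy arrays. Anxa1, measured by its brighter probe at chr19:20447938-20447997 on the minus strand of mm9, had levels of 8.55, 8.17, 9.35 and 7.85 on sham arrays. On pancreatectomy arrays its levels were 11.55, 8.57, 11.33 and 8.71. Pancreatectomy replicates 1 and 3 stood apart and replicates 2 and 4 lay within the sham range. The change was 1.56 ± 0.73 (SE), about 2.95-fold. The second Anxa1 probe gave 7.04, 6.47, 5.78 and 6.37 on sham arrays and 10.05, 6.49, 9.54 and 6.72 on pancreatectomy arrays, the same 2 arrays being high.

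Anxa2, the partner of S100a10, was measured at chr9:69339532-69339591 on the plus strand of mm9. Its levels were 12.14, 11.88, 12.29 and 11.85 on sham arrays and 13.73, 12.36, 13.35 and 12.503 on pancreatectomy arrays. The groups did not overlap, with replicates 1 and 3 again the highest, but replicate 2 cleared the highest sham array narrowly. The change was 0.95 ± 0.31. Anxa2 and Anxa10 were the 2 members of 9 whose pancreatectomy arrays all lay above the sham arrays, which held for 2.99% of all features, and nothing is read from this count either. Anxa3, an annexin with phospholipase-inhibiting activity in vitro, had levels of 7.92, 7.84, 8.32 and 7.75 on sham arrays and 8.94, 7.61, 8.53 and 7.88 on pancreatectomy arrays. These overlapped, and the change was 0.28 ± 0.29.

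The arrays on which Anxa1, Anxa2 and Anxa3 were high were also those with the highest means of the macrophage, fibroblast and neutrophil marker lists. Single genes in these lists did not all follow. Over 6 of 7 macrophage markers measured (Adgre1, Cd68, Csf1r, C1qa, C1qb and Mrc1), the mean log2 difference from the sham mean was 1.58, -0.48, 1.20 and 0.036 on pancreatectomy replicates 1 to 4. Over 7 of 7 fibroblast markers (collagen genes, Dcn, Lum, Pdgfra and Pdgfrb) it was 3.02, -0.0069, 2.39 and -0.058. Over 4 of 5 neutrophil markers it was 2.37, 0.43, 1.99 and 0.79. C1qa was 11.75 and 11.80 on pancreatectomy replicates 1 and 3, within its sham range of 11.24 to 11.91. Group changes of the neutrophil genes were 2.57 for S100a8, 2.16 for S100a9, 0.67 for Ly6g and 0.16 for Camp. The duct and endothelial lists, over 5 genes each, were also highest on replicates 1 and 3. The duct mean was 0.64, -0.63, 0.41 and -0.60 on pancreatectomy replicates 1 to 4, and -0.34 to 0.39 on sham arrays. The endothelial mean was 0.35, 0.075, 0.30 and 0.075 on pancreatectomy replicates 1 to 4, and -0.17 to 0.22 on sham arrays. Not all endothelial genes followed, and Kdr was highest on pancreatectomy replicate 2, at 14.33. The summed linear signal of the macrophage list ran from 11791 to 13897 on sham arrays and from 8984 to 19048 on pancreatectomy arrays. That of the fibroblast list ran from 5545 to 10891 and from 7046 to 112560, and that of the neutrophil list from 112 to 364 and from 271 to 1086. Cd163 and Ngp were near background on all 8 arrays. The part of these cells in the Anxa1, Anxa2 and Anxa3 values was not tested.

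Without pancreatectomy replicates 1 and 3, the changes were 0.16 for Anxa1, 0.39 for Anxa2 and -0.21 for Anxa3, and 2.35 for Anxa10. Anxa10 was high on replicate 2, where Anxa1 lay within its sham range and Anxa3 below it. Among the members, after each group's mean was subtracted, Pearson's r over the 8 arrays was highest for Anxa2 with Anxa3 (0.980), Anxa1 with Anxa2 (0.976) and Anxa1 with Anxa3 (0.967). It was lowest for Anxa1 with Anxa7, at -0.685. These values share arrays and scaling and are a description only.

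**Figure D4:**
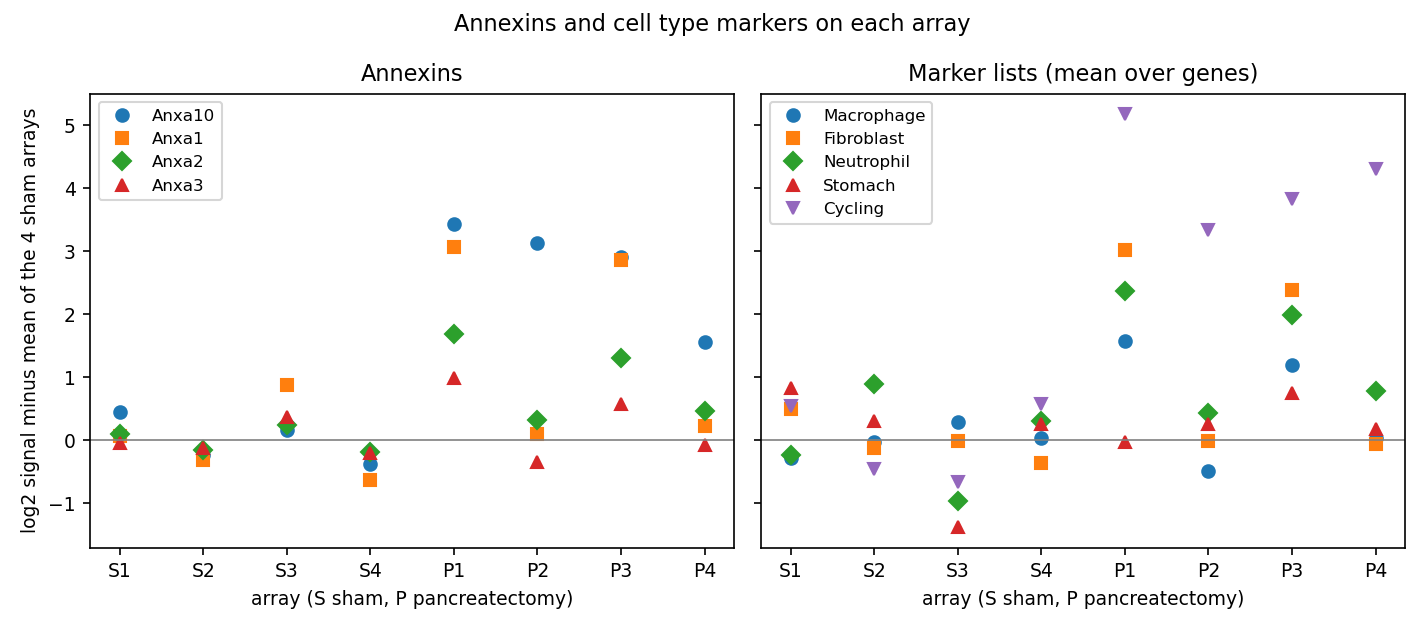
Log2 signal minus the mean of the 4 sham arrays (y axis) on each array (x axis) for 4 annexins (left) and for the mean of 5 marker lists (right). Anxa1, Anxa2 and Anxa3 are high on P1 and P3 with the macrophage, fibroblast and neutrophil lists, while Anxa10 is also high on P2. The duct and endothelial lists, also highest on P1 and P3, are not drawn.

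Stomach and cell-cycle markers were set beside Anxa10, since its transcript is best known from stomach. Of 8 stomach markers 4 were measured (Gkn1, Gkn3, Tff2 and Muc5ac), and their mean difference from the sham mean was -0.022, 0.26, 0.75 and 0.17 on pancreatectomy replicates 1 to 4 and 0.82, 0.31, -1.38 and 0.25 on sham replicates 1 to 4. Their summed linear signal was 622 to 6159 on sham arrays and 1197 to 4415 on pancreatectomy arrays. The acinar list was also lowest on sham replicate 3. Its mean was 1.42, 0.39, -2.02 and 0.21 on sham replicates 1 to 4. On pancreatectomy replicates 1 to 4 it was -0.64, 0.11, 1.49 and 0.11. The part of acinar tissue in the stomach values was not tested. Gkn2, a defining marker of gastric pit cells, was near background on all 8 arrays. Atp4b, of acid-secreting cells, was well above background on 1 sham array and each of the 2 Tff1 probes on 1 pancreatectomy array. The cycling markers were chosen with earlier results of these arrays known, so nothing is read from their count of calls. All 5 (Mki67, Top2a, Birc5, Cdk1 and Bub1) were past the threshold, against 0.544% of all features called higher. Their mean differences were 5.18, 3.34, 3.82 and 4.30 on pancreatectomy arrays. Their summed linear signal was 284 to 533 on sham arrays and 3715 to 12274 on pancreatectomy arrays. The part of cycling cells in the Anxa10 value was not tested.

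The remaining members differed less between the groups than Anxa10, Anxa1 and Anxa2. The largest of their changes, -0.29 for Anxa6, was similar in size to the 0.28 of Anxa3. Anxa5, the phosphatidylserine-binding annexin used as a stain for dying cells, had levels of 14.45, 14.65, 14.67 and 14.41 on sham arrays. On pancreatectomy arrays its levels were 14.24, 14.37, 14.17 and 14.37. The groups did not overlap, all 4 pancreatectomy arrays being lower, and the change was -0.26 ± 0.14. Of the 9 members 1 was separated in this direction, against 5.29% of all features.

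Anxa6, a large annexin with a doubled core that acts in endosome traffic and cholesterol transport, had levels of 13.11, 13.13, 13.72 and 13.09 on sham arrays and 13.07, 12.63, 13.01 and 13.20 on pancreatectomy arrays. Sham replicate 3 stood above the others, and the change was -0.29 ± 0.20 with it and -0.13 without it. Anxa4, an annexin of secretory epithelia, had levels of 12.45, 13.04, 13.35 and 12.89 on sham arrays and 12.93, 13.28, 12.95 and 13.30 on pancreatectomy arrays, with a change of 0.18 ± 0.21, and of 0.023 without sham replicate 1. The groups overlapped for both genes. The second Anxa4 probe was well above background on 2 sham arrays and no pancreatectomy array and was left out.

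Anxa7 and Anxa11 carry long amino-terminal extensions and bind the calcium sensors Sri and Pdcd6. The brighter Anxa7 probe gave 11.50, 11.33, 10.76 and 11.26 on sham arrays and 11.08, 11.28, 11.002 and 11.47 on pancreatectomy arrays, a change of -0.0042 ± 0.20. Its second probe gave 8.64, 8.79, 8.82 and 8.67 against 8.53, 8.29, 8.33 and 8.65, a change of -0.28. The brighter Anxa11 probe gave 11.46, 11.72, 12.07 and 11.56 against 11.55, 11.46, 11.36 and 11.61, a change of -0.21 ± 0.17, and the second a change of -0.068. The groups overlapped for the brighter probe of both genes. Of the further annexins on the array, Anxa8, Anxa9 and Anxa13, none was called. Anxa8 had a change of -0.67 ± 0.26 by its brighter probe and 0.72 by a dim probe, so its probes differed in direction. Anxa9 had a change of -0.20 ± 0.24 and Anxa13, an intestinal annexin, of -0.33 ± 0.60. Anxa13 lay 1.56 above its sham mean on pancreatectomy replicate 3, the array with gut transcripts, and below it on the other 3. Its change was -1.37 within slide row 1, 0.70 within row 2 and 0.25 with array weights. The part of gut transcripts in it was not tested.

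The members were not alike in their spread. The SD over the 4 pancreatectomy arrays was 1.62 for Anxa1, 0.83 for Anxa10, 0.66 for Anxa2 and 0.60 for Anxa3, and from 0.10 to 0.24 for Anxa4, Anxa5, Anxa6, Anxa7 and Anxa11. On sham arrays it was 0.13 to 0.65 over all 9. Relative to all features, the pancreatectomy SD of Anxa1 was at the 98.6th percentile and that of Anxa5 at the 8.08th.

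Partner and pathway genes of the annexins were tested. They did not enter the choice of the 9 annexins, but their lists were drawn up with earlier results of these arrays known, so the counts are not independent of the data. Of 68 genes in 7 lists, 60 were measured, and 0 passed the adjusted threshold in limma in either direction, against 0.629% of all features. At an unadjusted p under 0.05, 10 of the 60 were higher and 0 lower, against 4.22% of all features higher at that level. The share of all features lower at that level is not given here, so nothing is read from the split in direction. These partner counts depended on the processing and the arrays. They were 6 higher and 1 lower under median scaling, 1 and 0 with no scaling, and 18 and 2 with array weights. Without pancreatectomy replicates 1 and 3, which had the highest means of the macrophage and fibroblast lists, they were 2 and 1. The median change over the 60 was 0.12, against -0.037 over all features, and 36 were positive. The share of all features with a positive change is not given here. Nothing is therefore read from this count or from the counts of positive genes by list. Median scaling lowers every change by the same amount, and signs of the smallest positive changes turn under it.

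Of 7 S100 partners, small calcium-binding proteins that pair with annexins, 5 were positive and none was called. S100a10, which forms a tetramer with Anxa2, had levels of 11.22, 11.24, 11.29 and 11.37 on sham arrays and 11.49, 11.48, 11.80 and 11.72 on pancreatectomy arrays. These did not overlap, and the change was 0.34 ± 0.14 (adjusted p of 0.438). S100a6 had a change of 0.95 ± 0.34 (adjusted p of 0.384), with pancreatectomy replicates 1 and 3 the highest at 13.14 and 12.41. S100a4 and S100a13 had changes of 0.61 and 0.18.

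The list median of the plasminogen axis, with 6 of 8 genes measured, was 0.61, and none was called. Plaur, the urokinase receptor, had a change of 1.44 ± 0.44 (adjusted p of 0.301). It was highest on pancreatectomy replicates 1 and 3, at 9.04 and 8.13. Ahnak, a large scaffold that binds the Anxa2 and S100a10 complex, had a change of 0.67 ± 0.21 and did not overlap between groups. Ctsb had a change of 0.37.

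Of the formyl peptide receptors, through which Anxa1 signals, 4 of 7 were measured. Fpr1 had a change of 1.5 ± 0.45 (adjusted p of 0.297), Fpr-rs6 of 0.36 ± 0.19, Fpr-rs3 of 0.089 and Fpr3 of -0.081. With normexp background correction the change was 0.35 for Fpr1 and -0.0016 for Fpr-rs6. Mean sham levels of these probes were 3.24 and 3.51, and neither was well above background on all 8 arrays. The 4 calcium-dependent partners of Anxa7 and Anxa11 had a median of -0.063, with Pdcd6 at -0.15, Pef1 at -0.11, Pdcd6ip at 0.040 and Sri at -0.018. Among 10 of 12 membrane repair genes measured, the median was 0.041, with Ehd2 at 0.84 ± 0.29, Ehd1 at 0.35, Dysf at 0.20 and Cav3 at 0.20.

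Of the 18 genes of phosphatidylserine exposure and recognition, 11 were positive and the median was 0.12. Tyro3, a receptor that recognises phosphatidylserine through bridging proteins, had levels of 9.1, 8.92, 9.16 and 8.75 on sham arrays and 9.90, 9.45, 9.59 and 9.54 on pancreatectomy arrays. The groups did not overlap, and its change of 0.64 ± 0.16 had an adjusted p of 0.195, the lowest of the 60. Pros1, a bridging protein, had a change of 0.51 ± 0.19, Axl of 0.47 ± 0.27, and Stab1, a scavenger receptor of macrophages, of 1.30 ± 0.53. Stab1 was 11.05, 8.42, 9.69 and 8.48 on pancreatectomy replicates 1 to 4 and Axl 9.502, 8.53, 9.25 and 8.82, both highest on replicates 1 and 3. Without those arrays the changes were 0.34 for Stab1, 0.12 for Axl and 0.20 for Pros1. The same omission gave 0.73 for Plaur, 0.84 for Fpr1, 0.43 for S100a6, 0.41 for Ehd2 and 0.015 for Pla2g4a. Macrophage markers averaged 1.58 and 1.20 above the sham mean on those arrays and fibroblast markers 3.02 and 2.39, and their part in the partner values was not tested. Of 11 phospholipase A2 genes measured the median was -0.098, with Pla2g7 at 0.52, Pla2g4a at 1.15, Pla2g2f at -0.39 and Pla2g15 at -0.36. The Pla2g7 change was 1.44 with normexp and 1.79 without sham replicate 3. In each such alternative the brightest kept probe of a gene was chosen anew.

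**Figure D5:**
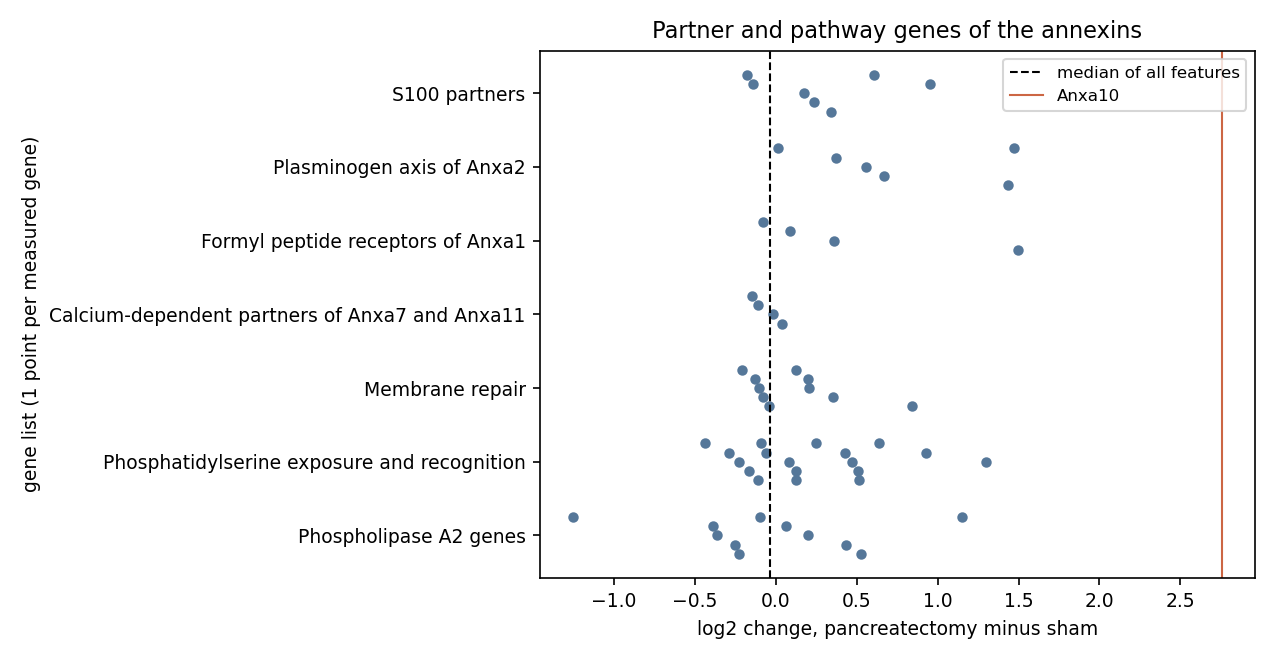
Log2 change, pancreatectomy minus sham (x axis), of each measured partner or pathway gene by list (y axis), with 1 point per gene, a dashed line at the median of all features and a solid line at Anxa10. The 60 genes lie on both sides of the dashed line at -0.037, and none reaches the Anxa10 change of 2.76.

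The features with a symbol whose level over the 8 arrays was most like that of Anxa10, by Pearson's r, were 1810009J06Rik (0.990), Blm (0.971), Lrrc8c (0.962), Isoc2a (0.957) and Qk (0.956). Both this and the choice of Anxa10 draw on the group difference. With each group's mean subtracted, so that only the spread within groups is compared, they were 6430590A07Rik (0.987), Peli2 (0.976), Ankrd52 (0.956), Ptgfrn (0.955) and Olfr620 (0.948). The 2 lists have no gene in common. Each r is over 8 arrays that share 1 slide and 1 scaling, and is a description among many features.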

How the data were processed

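Scanner images were converted with Feature Extraction, version 9.1 per the submitters' processing notes and 10.7.3.1 per the file headers. Per the file headers, the deposited intensity is background-subtracted within each array. A whole-series table from the authors gives 1 log2 average per group after a 75th percentile shift in GeneSpring GX 12.5, per the file headers. Regressed on the array values over 37491 probes, its differences gave slope 0.999 and r 0.985, and its column medians were 0.0718 (sham) and 0.0034 (pancreatectomy). It gave gene names and a check, and no test.

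From the intensities, log2 values were shifted by each array's 75th percentile, outlier spots (113 to 228 per array) were left out and spots of a probe were averaged. No spot was saturated. A probe was kept if well above background on at least 4 of 8 arrays, with at least 3 values per group, and a gene is its brightest kept probe. Of the annexins' 13 probes, 12 were kept. Symbols were updated through Entrez IDs with a RefSeq table of GRCm38.p6, which matched 30994 of the 33325 named probes and gave no coordinates. The test was limma's moderated linear model (version 3.58.1, R 4.3.3), adjusted by the Benjamini-Hochberg method for 30864 features, at a threshold of 0.05. Changes are pancreatectomy minus sham. The scripts were tested on simulated data. The number of arrays limits the precision, with a median SE of 0.22. Normexp used the median spot signal. The arrays of a group carry no numbers that pair them across groups.

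The members, marker lists and partner lists were chosen with earlier results of these data known. Named genes are the members with all their probes, the further annexins, and, of each partner list, every called gene and otherwise up to 4 with the smallest p. A gene named by this rule is not reported here. The 5 most alike features are named for likeness.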

Additional observations from a re-analysis of the deposited data

Results flagged for a closer look

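Of the 16 kept annexin probes in 2 groups of 4 arrays, 32 groups in all, 1 had an array far from the other 3. The Anxa6 level was 13.72 on sham replicate 3 and 13.09 to 13.13 on the other sham arrays, a gap of 0.936 of the group's range. Sham replicate 3 was also the array with the lowest 75th percentile. Chance alone puts about 1 in 20 groups past this limit.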

How the results depend on the processing

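Anxa10 was higher after pancreatectomy in 26 of 26 alternatives that gave a value, from 0.89 to 3.18. Its call in the whole-table fit, which is no test of a gene chosen by this contrast, was kept in 11 of 24 alternatives and lost in 13. It was lost with no scaling (2.76), normexp (0.89), no filter (2.76), within slide row 1 (3.18) or 2 (2.34), without pancreatectomy replicates 1 and 3 (2.35), and without the 3 arrays with liver transcripts (2.89) or the 4 with liver, gut or B-cell transcripts (3.01). Leaving out 1 array gave 2.53 to 3.16, with the call lost without sham replicates 2, 3 or 4 or pancreatectomy replicates 2 or 3. With a filter of all 8 arrays above background it had no value. Raising dim sham arrays, and normexp on the median signal, were chosen after seeing the data. The median of the other 8 annexins was 0.016 to 0.13 with 1 array left out and -0.17 without the 4 arrays. Under normexp and without the 4 arrays, the change of Anxa10 minus the mean of the others was 0.60 and 3.14. Features past the threshold numbered 194, but 18 with no scaling, 60 with normexp, 72 with no filter, 126 above background on all 8 arrays, 122 with slide row as a block, 1 and 0 within rows 1 and 2, 1117 with array weights, 30 without pancreatectomy replicates 1 and 3, 0 without the 3 or the 4 arrays, and 64 to 179 with 1 array left out. Array weights put 3 partner genes past the threshold (Tyro3 0.76, Fpr1 1.86, Plaur 1.96), and gave changes of 2.51 for Anxa1 and 1.29 for Anxa2. Anxa1 and Anxa2 were each called in 1 alternative, and the remaining members besides Anxa10 in none. Of the other annexins, Anxa7 changed sign in 11 of 26 alternatives, Anxa3 in 2 and Anxa1 in 1, and of the further annexins Anxa13 in 4 of 24. Partner genes at an unadjusted p under 0.05 ranged from 0 to 18 higher and from 0 to 2 lower. The causes were not tested. No paired analysis was possible because the labels give the arrays no numbers shared across groups.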
